A study of Caenorhabditis elegans with 2 samples.

Results

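The 10 genes described here encode GATA factors of the nematode Caenorhabditis elegans, and the data show where NHR-71, a nuclear hormone receptor, was found around them in first-stage (L1) larvae. The genes were chosen by name, with earlier results of these data known: elt-1, elt-2, elt-3, elt-4, elt-6, elt-7, egl-18, egl-27, end-1 and end-3, which are 10 of the 19973 protein-coding genes on the nuclear chromosomes. Chromatin immunoprecipitation and sequencing was done in 2 biological replicates of whole hermaphrodites of strain OP480, genotype unc-119(tm4063) III; wgIs480, in which a transgene makes NHR-71 with a C-terminal GFP and FLAG tag. Animals were synchronized by bleaching and starved as L1 larvae, and chromatin is from animals 6 h after that step. An antibody against GFP was used. All samples carry the same transgene, no untagged strain was analysed here, and whole animals mix all tissues, so the cells in which a site was occupied are not known. With 1 group there is no contrast between samples, and the values below are given as a description beside the same measure over all genes or peaks.

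GATA factors are zinc finger proteins that recognise the letters GATA flanked by A or T on one side and by A or G on the other. In the worm they act in cascades. END-1 and END-3 commit an early embryonic cell to endoderm, and ELT-2 with ELT-7 then establish the intestine and keep it differentiated. ELT-1 sets the epidermal fate in the embryo, ELT-3 acts in the epidermis that covers the body, and EGL-18 and ELT-6 maintain the seam cells, a row of epidermal stem-like cells along each side. EGL-27 stands apart. It is a homologue of the metastasis-associated (MTA) proteins of the NuRD chromatin-remodelling complex and carries a GATA-type zinc finger beside other domains. Nuclear hormone receptors are a large family in this animal, and many act in metabolism.

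Each gene was given a window from 5000 bp upstream of its annotated start to its end. A peak belonged to it when its summit, the position of highest signal, lay in that window. The peak set used is the authors' IDR set of 8540 summits, where IDR stands for irreproducible discovery rate, a measure of how far the ranks of a peak in replicates match. Signal is the authors' own value on a scale not given in the sources used here, so the rank of a peak in its list, counted from the strongest, is given with it. The lists hold no read counts, so depth is unknown.

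The sequences shown here are those under the strongest peak of each member that had one, with the coding-exon peak of elt-3 added. Each is 100 bases centred on the summit, read from the plus strand of ce11 (WBcel235) in its RefSeq copy. Capitals mark 4 GATA words on either strand. One pair begins with A (the words AGATAA or else AGATAG) and the other pair with T (the words TGATAA or else TGATAG). All 10 genes lie on the plus strand, so the letters read in the direction of the gene.
elt-2, 481 bp upstream, chrX:10480709-10480808: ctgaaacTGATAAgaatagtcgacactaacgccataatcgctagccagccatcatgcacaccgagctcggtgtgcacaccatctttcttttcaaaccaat
end-3 window, 2388 bp upstream, chrV:14012257-14012356: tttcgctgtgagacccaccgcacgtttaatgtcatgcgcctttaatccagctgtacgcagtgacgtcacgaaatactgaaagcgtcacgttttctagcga
elt-1, 669 bp downstream, chrIV:9615614-9615713: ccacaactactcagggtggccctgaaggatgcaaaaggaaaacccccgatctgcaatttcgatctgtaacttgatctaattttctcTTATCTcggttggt
elt-3, 4722 bp downstream, chrX:13939546-13939645: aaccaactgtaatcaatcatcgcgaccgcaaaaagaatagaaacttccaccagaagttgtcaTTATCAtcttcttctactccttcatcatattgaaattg
elt-3, 5615 bp downstream, chrX:13940439-13940538: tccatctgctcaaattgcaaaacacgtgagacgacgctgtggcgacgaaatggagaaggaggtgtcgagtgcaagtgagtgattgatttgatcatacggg
egl-18, 1093 bp upstream, chrIV:1901179-1901278: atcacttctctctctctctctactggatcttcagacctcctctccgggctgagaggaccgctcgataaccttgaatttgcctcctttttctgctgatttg
egl-27, 7792 bp downstream, chrII:6842750-6842849: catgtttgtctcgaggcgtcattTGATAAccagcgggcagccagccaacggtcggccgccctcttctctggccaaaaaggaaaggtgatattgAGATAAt

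Peaks were found at 6 of the 10 genes, and 10 of their 20 summits were at egl-27 alone. elt-1, elt-2, elt-3, egl-18, egl-27 and end-3 had an IDR summit in their window, and elt-4, elt-6, elt-7 and end-1 had none. Among all protein-coding genes the share with a summit was 41.8%. The windows held 20 summits in all, of which 10 were at egl-27, 4 at elt-3, 3 at egl-18 and 1 each at elt-1, elt-2 and end-3. The windows of egl-18 and elt-6, a tandem pair on chromosome IV, overlap by 4864 bp, but no IDR summit lay in the shared stretch. In the narrower promoter window, from 1000 bases before the start to 200 after it, only elt-2 and egl-27 had a summit, or 2 of 10, against 20.8% of all genes. That share is close to the background.

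Longer windows held a summit more often. All genes were put in 5 groups of equal number by window length, with group 1 the shortest. The share with a summit was 34.6% in group 1, 33% in group 2, 38.4% in group 3, 46.1% in group 4 and 56.6% in group 5. elt-1, elt-3, egl-18 and egl-27 are all in group 5 and all had a summit. In group 3 elt-2 had one and elt-7 and end-1 did not. end-3 in group 2 had one, and elt-4 in group 1 and elt-6 in group 4 had none. The part of window length in the count of 6 was not tested.

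**Figure D1:**
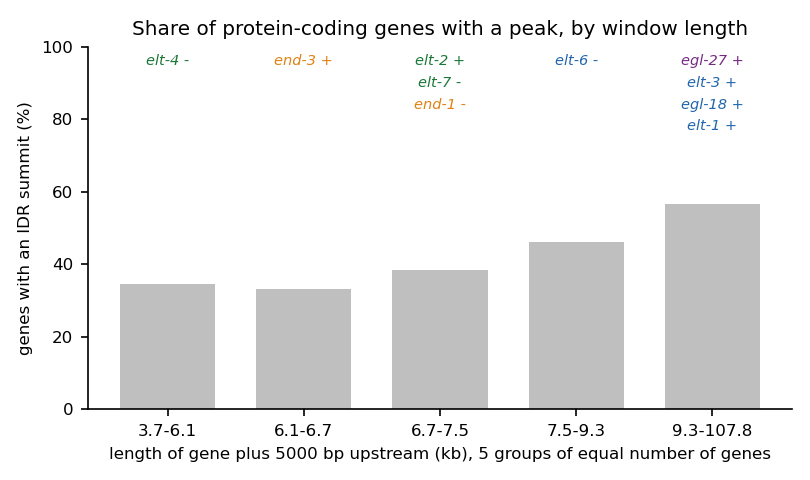
Bars show the share of all protein-coding genes with an IDR summit from 5000 bp upstream of the start to the gene end (vertical axis, percent), in 5 groups of equal number by window length (horizontal axis, kb). Gene names above each bar are the GATA factor genes of that group, with a plus sign where a summit was found; the 4 longest members all had one, and 2 of the other 6 did.

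Most member peaks were weak within the IDR set. Their signals ran from 89.0 to 1008 with a median of 136, against a median of 194 over all 8540 summits, and 5 of the 20 were above that overall median. These 5 were 4 peaks of egl-27 and the peak in the end-3 window. The lowest signal in the IDR set was 84.1, and the weakest member peak, at egl-18, was just inside it. Just outside were positions at elt-2 (77.7), elt-1 (75.8), egl-27 (75.8) and elt-3 (74.7). In the pooled list of 30000 positions, which has no such threshold, the member windows held 54 positions. Of these, 20 (37.0%) belonged to the IDR set, against 28.5% over the whole list. egl-27 alone held 20 of the 54 positions, with 10 in the IDR set, and the other members together had 10 IDR summits. The share of 37.0% was thus raised by egl-27 and does not describe the other members.

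**Figure D2:**
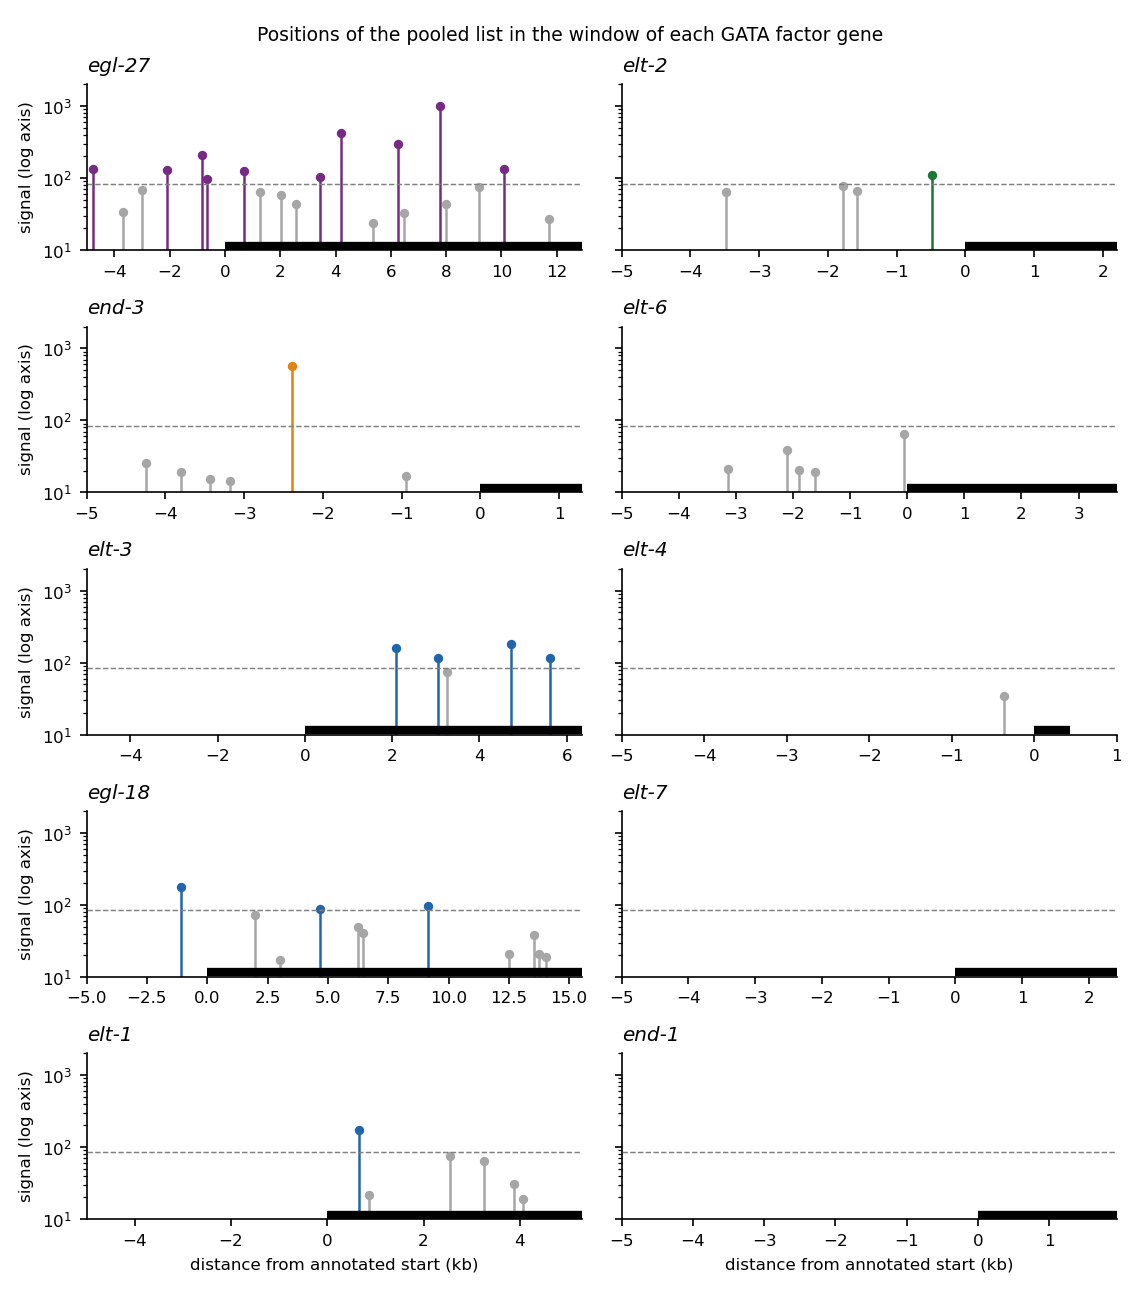
Each panel shows 1 gene: the horizontal axis is the distance from its annotated start in kb, the vertical axis the signal in the pooled list on a log scale, and the black bar the gene. Coloured stems are IDR peaks, grey stems weaker positions, and the dashed line is the lowest signal of the IDR set (84.1); egl-27 has 10 coloured stems, and elt-7 and end-1 have no stem at all.

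Among the intestinal factors only elt-2 had an IDR peak. elt-2 encodes the main GATA factor of the larval and adult intestine and lies on chromosome X from 10481240 to 10483441. Its peak, from 10480549 to 10480968, had its summit 481 bp upstream of the start, in no other gene's promoter window. The signal was 59.3 in replicate 1 (rank 6978) and 51.3 in replicate 2 (rank 7672), and 111 in the IDR set (rank 6962). It was in the weaker part of the IDR set, though among the first 8540 of the 30000 positions in each replicate list, and 38.0% of all genes had a signal at least as high in their windows. The sequence under it, printed above, holds TGATAA once, towards its upstream end. Upstream of this peak the pooled list had 3 positions below the IDR set, at 1574, 1773 and 3486 bp, with signals of 65.8, 77.7 and 64.0.

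The other intestinal genes had no IDR peak. elt-4, a short gene (chromosome X, 10475527 to 10475959) whose start is 5713 bp upstream of that of elt-2, had a single pooled position 363 bp upstream with a signal of 34.6 (rank 16873). Both replicates listed it outside their first 8540 positions, at rank 23980 in replicate 1 and 17238 in replicate 2. elt-7, which acts with elt-2, had no position in the pooled list or in replicate 2. Replicate 1 listed 1 at a signal of 10.2, near the lowest value of that list (10.1), at rank 29887 of 30000. elt-7 lies on chromosome V from 4770670 to 4773086. Over the intestinal class, 1 of 3 genes had an IDR peak, with 0.499 summits per 10 kb of window, against 0.886 over all protein-coding genes.

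The embryonic endoderm genes gave 1 peak, and its place makes the assignment doubtful. end-1, on chromosome V from 13985128 to 13987074, had no position in any of the pooled and replicate lists. This sets its signal below the lowest listed values, 10.1 in replicate 1 and 7.83 in replicate 2, and is not evidence of no binding. end-3 (14014695 to 14015980), which starts 29567 bp from end-1, had an IDR peak from 14012147 to 14012512 with a signal of 325 in replicate 1 (rank 1110) and 246 in replicate 2 (rank 1381), and 567 in the IDR set. It was well above the other positions in the window in both replicates. Its summit, however, was 2388 bp upstream of end-3 and 26 bp from the start of aip-1, with the start of ddx-17 at 255 bp on the other side. It thus lies in the promoter windows of both of these genes and not in that of end-3. aip-1 encodes an arsenite-inducible protein and ddx-17 a DEAD-box RNA helicase. Within 1000 bp of its own start end-3 had 1 pooled position, of signal 16.9, at 939 bp upstream.

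The epidermal genes had 8 peaks, all below the median signal of the IDR set. elt-1, elt-3 and egl-18 had 1, 4 and 3 summits, and elt-6 had none. The class had 1.57 summits per 10 kb of window, against 0.886 over all protein-coding genes. In this rate the 4864 bp shared by egl-18 and elt-6 are counted in both windows, which lowers it. Their signals ran from 89.0 to 180 with a median of 138. None of the 8 summits lay in a promoter window; 1 was upstream of its gene and 7 were inside.

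elt-1, the factor that sets epidermal fate, lies from 9614995 to 9620280 and had its peak on chromosome IV from 9615454 to 9615873, in an intron. The signal was 94.4 in replicate 1 (rank 4616) and 77.4 in replicate 2 (rank 5322), and 175 in the IDR set. elt-1 has several annotated transcript starts, and the summit, 669 bp downstream of the first, was 326 bp from the nearest. The window of 5000 bp upstream held no position of the pooled list at all. Further into the gene, positions of signal 75.8 and 63.9 lay 2544 and 3265 bp from the start, below the IDR set.

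elt-3, which acts in the body epidermis (chromosome X, 13934874 to 13941216), carried 4 summits, all within the gene. Of all protein-coding genes, 2.89% had as many or more. The strongest, 4722 bp downstream of the start, had a signal of 88.7 in replicate 1, 91.3 in replicate 2 and 180 in the IDR set, and lay in an intron 130 bp from the start of the transcript K02B9.4d.1. The first, at 2086 bp, gave 82.7 and 85.6 in the replicates (162 in the IDR set), 28 bp from an annotated non-coding RNA gene, K02B9.8. The other 2 were at 3041 bp (62.1 and 65.3) and 5615 bp (67.4 and 48.7). At the former the replicates placed their own summits apart, at 2937 bp in replicate 1 and 3195 bp in replicate 2. Upstream of elt-3 no position was listed in the pooled list.

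The last of these elt-3 peaks was the only one of the 20 whose summit lay in a coding exon. Translating the longest coding sequence of each member from the genome and searching for the cysteine pattern of a GATA finger, with 17 or 18 residues between 2 pairs of cysteines, found it in 8 of the 10 genes, with 2 matches in elt-1. It was not found in egl-27 and end-1, which says only that this spacing is not in the sequence used. In elt-3 the codons of this finger run from 13940445 to 13940565, interrupted by an intron, and the IDR summit at 13940489 falls on them. The replicates placed their own summits apart, at 13940424 in replicate 1, outside this span, and at 13940542 in replicate 2. Whether the latter is on codons or in the intron was not recorded, so the place on the codons rests on the IDR summit alone. At the other members with both a finger match and a peak, the nearest IDR summit was between 1466 bp (elt-2) and 3360 bp (egl-18) from the finger codons.

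egl-18 and elt-6, which act together in the seam, differed in their listing. egl-18 spans 15519 bp on chromosome IV, from 1902322 to 1917840, and had a summit 1093 bp upstream, with a signal of 88.2 in replicate 1 and 89.7 in replicate 2, and 180 in the IDR set. This summit is just beyond the promoter window of 1000 bp. It had 2 weaker summits in introns, 4655 and 9150 bp downstream, of which the first was less even between replicates (33.6 and 54.4, with ranks of 11375 and 7284) and the second was at 50.1 and 44.7. The second was 1974 bp from the nearest start of an egl-18 transcript. By first annotated starts alone it is nearer to elt-6, at 6505 bp, than to egl-18. elt-6 (1917977 to 1921643) had its strongest pooled position 53 bp upstream of its start, with a signal of 65.4 (rank 10394), and 38.0 and 26.3 in the replicates. It is below the IDR set, and the difference between these 2 genes was not tested.

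egl-27 had the most peaks and the highest signal of the 10 genes. It lies on chromosome II from 6835008 to 6847908, and its window of 17901 bp held 10 IDR summits, 5.59 per 10 kb, against 0.886 over the windows of all protein-coding genes. Only 15 of the 19973 genes (0.0751%) had 10 or more. The strongest peak, on chromosome II from 6842585 to 6843092, had a signal of 511 in replicate 1 (rank 558) and 497 in replicate 2 (rank 452), and 1008 in the IDR set (rank 496). Both replicates put it well above the other 9, and 4.54% of all genes had a signal at least as high in their window.

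This strongest summit is in an intron 7792 bp downstream of the first start. The nearest start of an egl-27 transcript was 396 bp away, and a gene for a small nucleolar RNA, C04A2.16, was 440 bp away. The start of tbc-6, the next gene, was nearer than the first start of egl-27, at 5324 bp. The sequence printed above holds 2 GATA words, TGATAA and AGATAA. Next in strength were intron peaks at 4192 bp, with signals of 226 and 199 in replicates 1 and 2, and at 6273 bp, with 149 and 147. Each of these 2 pairs of values was close.

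The remaining egl-27 peaks were weaker. In the promoter window, a peak 843 bp upstream had a signal of 130 in replicate 1 and 80.9 in replicate 2 (211 in the IDR set), and a second, at 644 bp upstream, had 39.7 and 46.1. The intervals of these 2 peaks, 6833955 to 6834374 and 6834154 to 6834573, overlap, and they are counted as 2 of the 10 summits. Further upstream there were peaks at 2092 and 4765 bp with IDR signals of 129 and 136. In introns, the summits at 707, 3451 and 10094 bp had IDR signals of 126, 104 and 135. The last of these differed most between replicates of all 20, with 101 in replicate 1 and 36.3 in replicate 2. Replicate 2 held another summit close by, of signal 68.7 at 9921 bp. In the IDR set the promoter peak signal of egl-27 (211) was nearest to those of T26C11.9 (211) and R09B5.11 (211), which says only that their ranks are next to each other.

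**Figure D3:**
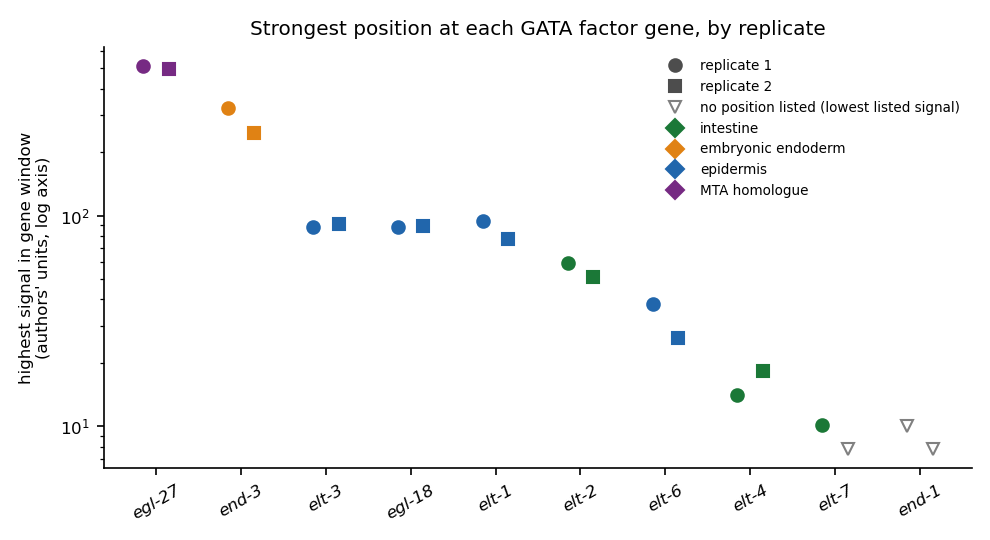
For each GATA factor gene (horizontal axis) the highest signal in its window (vertical axis, log scale) is shown in replicate 1 (circles) and replicate 2 (squares), coloured by class. Open triangles mark genes with no listed position and stand at the lowest signal of that list; egl-27 (511 and 497) and the peak in the end-3 window (325 and 246) stand above the rest.

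Ordered by the highest signal in their window, the genes were egl-27, end-3, elt-3, egl-18, elt-1, elt-2, elt-6, elt-4, elt-7 and end-1. The values of egl-27 and end-3 did not overlap between replicates with each other or with any gene below. The place of end-3 rests on its summit 2388 bp upstream, which lies in the promoter windows of aip-1 and ddx-17. With 2000 or 1000 bp upstream end-3 had no IDR peak. elt-3, egl-18 and elt-1 could not be ordered, since their replicate values, from 77.4 to 94.4, overlap. The place of egl-18 rests on its summit 1093 bp upstream: with 1000 bp upstream its best rank was 7721 in place of 4577, below that of elt-2 (6962). elt-2 was below all 3 in both replicates (51.3 and 59.3), and elt-6 was below elt-2 in both.

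The replicates gave similar signals at the member peaks. Every one of the 20 summits was covered by a peak in both replicate lists, as were 8426 of the 8540 in the whole set. The IDR set was derived from these same replicates, so that choice itself favours coverage and similar signals. On the log2 scale, replicate 2 relative to replicate 1 was -0.17 at the median of the 20 summits (SD 0.43), against -0.12 (SD 0.49) over the covered summits of the whole set. It was below 0 at 13 of the 20, and at 5321 of the 8426 covered summits of the whole set.

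**Figure D4:**
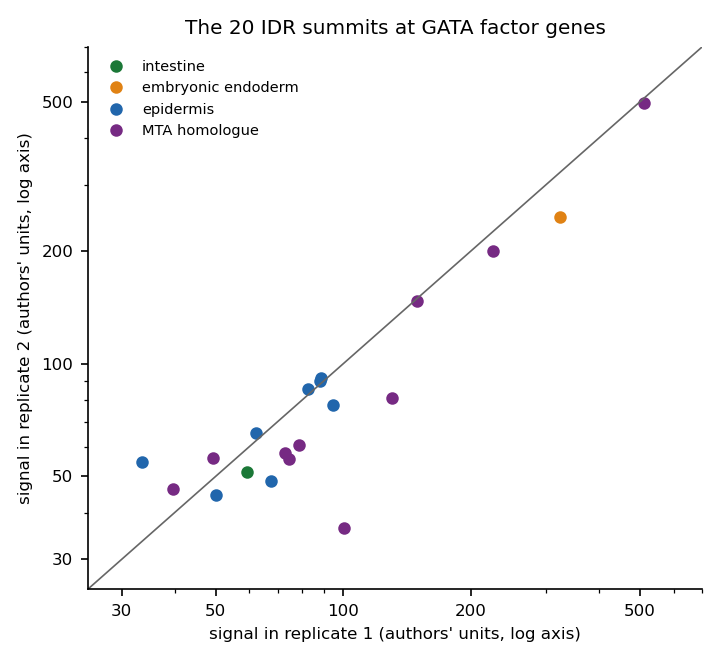
Each point is 1 of the 20 IDR summits at GATA factor genes, with its signal in replicate 1 on the horizontal and in replicate 2 on the vertical axis, both on log scales, coloured by class. The line marks equal signal; the egl-27 summit with signals of 101 and 36.3 is farthest from it.

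The place and base content of the member peaks were also recorded. Of the 20 summits 12 were in introns of the member, 7 upstream of it and 1 in its coding exon. The same places were not counted over all IDR summits. Within 500 bp of a protein-coding transcript start lay 8 of the 20, a share close to the 40.8% of all IDR summits. Within 100 bp of an annotated non-coding RNA gene other than a piRNA gene lay 8 of the 20, of which 5 were at egl-27, 2 at egl-18 and 1 at elt-3, against 14.6% of all IDR summits. This distance was chosen after the values had been seen, and peaks of 1 gene are not independent of each other. The genes searched at member peaks were all those neither protein-coding nor piRNA, pseudogenes included. All 8 found were of the non-coding RNA type. The median GC content of the 100 bases at the summit was 47% for member peaks and 43% for all IDR summits.

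GATA words occurred at some of these peaks. At least 1 of the 4 words, on either strand, was within the 100 bases centred on 7 of the 20 summits (35%), against 24.1% of all IDR summits. TGATAA alone was at 4 of the 20, against 10.8%. The summits with a word were those of elt-1 and elt-2, 2 of the 4 of elt-3 and 3 of the 10 of egl-27, while none of the 3 at egl-18 and not the one in the end-3 window had one. In 50 bases the share was 15% against 11.6%, and in 200 bases 70% against 42.4%. Among the 4270 IDR summits of higher signal, a word was within 100 bases at 1 of the 5 member summits (20%), against 20.7% of all, so there the share was at the background. A word in this window is not shown to be a bound site.

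Other GATA-type factors above END-1 and END-3 in the endoderm pathway were also looked at. med-2, on chromosome III, had an IDR peak of signal 95.3 in its window, but 3638 bp upstream and 232 bp from the start of K04C2.7. med-1, on chromosome X, had none in the IDR set. Its strongest pooled position, of signal 82.4, was 4804 bp upstream and 75 bp from the start of T24D3.2. Neither position is near the start of the med gene itself.

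Among 14 genes that act upstream in endoderm specification, 4 had a promoter peak (28.6%) and 9 a summit in the longer window (64.3%). Those with a promoter peak were wrm-1, a beta-catenin gene (755), sys-1, another beta-catenin gene (299), mom-1, a Wnt-secretion gene (254, a peak also in the window of lev-9), and pop-1, the TCF factor gene (84.5, just inside the IDR set). skn-1, which starts the cascade, had no promoter summit but 6 in the longer window, up to a signal of 1119.

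Of 31 genes chosen for the intestine, 9 had a promoter peak (29.0%) and 21 a summit in the longer window (67.7%). The highest were erm-1, an apical membrane linker (354), sta-2, a STAT factor gene (288), cdf-1, a zinc transporter gene (191, shared with glr-8), and cpl-1, a cathepsin L gene (172). ges-1, the gut esterase gene that is a classic target of ELT-2, had no IDR summit in either window.

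Of 28 epidermis and seam genes, 4 had a promoter peak (14.3%), which is below the share of all genes, and 14 a summit in the longer window (50%), which is above it. nhr-25, a nuclear receptor gene of the epidermis, reached 386, the antimicrobial peptide gene nlp-29 226, the attachment gene mup-4 166 and the Runx factor gene rnt-1 166. lin-26, needed to keep epidermal fate, had no promoter summit and 1 of signal 159 in its longer window.

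The list around egl-27 had more. Of 13 NuRD, MEC and CoREST chromatin genes, 9 had a promoter peak (69.2%) and 11 a summit in the longer window (84.6%). The highest were lin-53, a histone chaperone gene (1503, shared with nra-2), rcor-1, a CoREST gene (785), lin-40, the other MTA homologue (684), and dcp-66 (538). The lin-53 summit was also the only one in the longer window of rba-1, so it is counted for both genes. The promoter peaks of spr-1 and hda-1 lay in the promoter windows of snap-1 and ril-1 as well. The shares over all genes are those given above, 20.8% for the promoter and 41.8% for the longer window, and no list was tested against them.

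**Figure D5:**
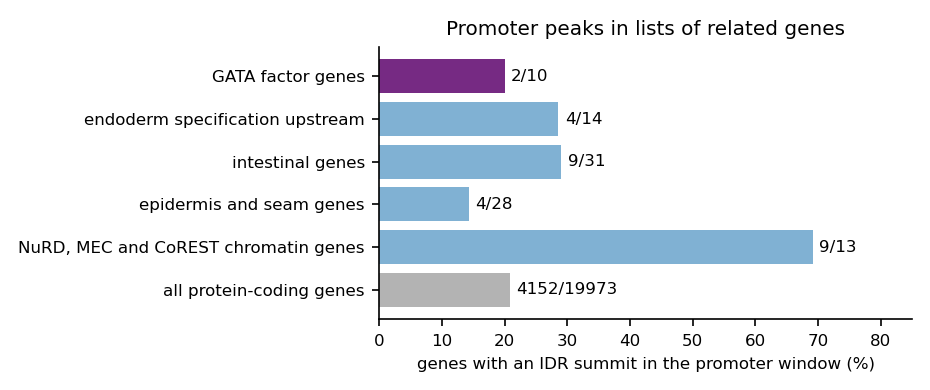
Bars give the share of genes in each list with an IDR summit in the promoter window (horizontal axis, percent), with the counts beside them. GATA factor genes (2 of 10) lie at the level of all protein-coding genes (20.8%), and the NuRD, MEC and CoREST list has 9 of 13.

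Compared with other families of transcription factor genes, the share with a summit in the longer window was 60% for the 10 GATA factor genes. It was 33.3% for 63 homeobox genes named ceh (21 genes) and 49.4% for 269 nuclear hormone receptor genes named nhr (133 genes). Among all protein-coding genes it was 41.8%. The 60% includes end-3, whose IDR peak lies 26 bp from the start of aip-1. The median window was 8042 bp for GATA factor genes, 7652 bp for ceh genes and 7309 bp for nhr genes. The medians do not show that elt-1, elt-3, egl-18 and egl-27 are in the longest group, where 56.6% of all genes had a summit. Among genes with a peak, the median of the highest signal was 180 for GATA factor genes, 260 for ceh genes and 257 for nhr genes, against 301 over all genes. These differences were not tested, since the members were chosen with earlier results known.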

How the data were processed

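Peak lists from 2 replicates of 1 group were used; the labels call them biological and say nothing of separate cultures. Per the submitters' file list, the authors called peaks on each replicate and on the pooled replicates, each with a control, and derived the IDR set from these 3 lists. The deposited signal per peak was used to rank peaks. Replicate and pooled lists end at 30000 positions, and the IDR set is the 8540 strongest of the pooled list. The aligner, the caller and the IDR threshold were not stated in the labels or file list used. The ce10 lists and the control were not analysed here.

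Genes came from Ensembl release 115 on ce11 (WBcel235), coordinates are 1-based, and a summit is the peak start plus the deposited offset. Python 3.11.15, NumPy 2.4.6, pandas 2.3.3 and Matplotlib 3.10.9 were used. Window counting was tested on simulated data. Each replicate value is that of the replicate peak over the summit. Annotated starts of trans-spliced genes can differ from starts of transcription.

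The text names all 10 members, med-1 and med-2, the 4 listed genes of highest promoter signal per list, skn-1, pop-1, ges-1, lin-26, genes whose start or promoter window is at a member peak, and the 2 nearest in promoter signal to egl-27. Genes that share a peak with a listed gene are named where it is described, as are rba-1, spr-1 and hda-1. Members and lists were chosen with earlier results of these data known. Alternatives varied the window, the threshold, the overlap rule, the words and the replicate.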

Additional observations from a re-analysis of the deposited data

How the results depend on the processing

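With 2000 or 1000 bp upstream in place of 5000 the embryonic endoderm class had 0 genes with a peak, since the peak at end-3 lies 2388 bp upstream. The share over all genes was 31.3% with 2000 bp and 26.1% with 1000 bp. Without the gene bodies, 7 summits were left, 1 epidermal gene had one, and the best rank was 1212. Of all genes, 37.9% then had a summit. With the 4270 IDR summits of higher signal, 2 genes (egl-27 and end-3) had a peak, with 5 summits, 0 epidermal and 0 intestinal genes. A promoter peak was then left at 1 gene. Over all genes the shares fell too, to 28.6% with a summit and 13.4% with a promoter peak. The intestinal and epidermal lists each had 2 promoter peaks. With the whole pooled list there were 54 positions, 2 intestinal genes with one, and 5 genes with a promoter position. Of all genes, 56.7% then had a position and 36.9% a promoter position. With 500 bp upstream, 1 GATA gene and 2 upstream endoderm genes had a promoter peak, against 16.6% of all genes. GATA words were at 15% of member summits in 50 bp and at 70% in 200 bp, and at 20% of the 5 member summits among those 4270. With 1000 bp upstream the best rank of egl-18 was 7721. Using the list of replicate 1 or 2 alone, cut to 8540 positions, moved no count by more than 1.5 times. The promoter count of epidermis and seam genes, however, rose from 4 to 6 with replicate 2 alone. No paired analysis was possible because there is 1 group. Read depth is unknown, and 2 replicates limit the precision.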
